A study of Mus musculus with 12 samples.

Results

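Naive and quiescence genes are those that resting T cells express to stay in circulation through lymph nodes and out of the cell cycle. The 10 genes of this set, chosen by name with earlier results of these data known, were Tcf7, Lef1, Ccr7, Dapl1, Satb1, Klf2, Klf3, S1pr1, Foxo1 and Bach2. Of these, 9 were measured, each by 1 probe set with a single symbol, out of 19938 genes in all; Tcf7 was not analysed here. The values came from 12 arrays of donor CD4+ T cells, 4 arrays in each of 3 groups. Spleen cells of C57Bl/6 mice, stained with the division dye CFSE, had been transferred into B6D2F1 hosts, where donor cells respond to host antigens in a graft-versus-host reaction. Donor and host mice were 10 to 12 weeks old. Hosts of the TCDD group received TCDD, a chlorinated dioxin, at 15 µg/kg on day 0. Day 0 and day 1 doses of 2 mg/kg were given in the Cl-BBQ group, and vehicle alone was given on both days in the vehicle group. Each compound binds the aryl hydrocarbon receptor (AhR), which enters the nucleus on binding a ligand and switches on genes such as Cyp1b1. CD4+ cells that had divided at least 2 times were sorted from spleen and lymph node on day 2 (48 hr), so undivided donor cells, in which this gene set is normally highest, were outside the gate in all 3 groups. TCDD and vehicle hosts differed in dosing days, and the compounds were not given at matched doses. The labels call the arrays of a group biological replicates without saying whether each held the cells of 1 host.

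In resting T cells the transcription factor Foxo1 maintains Klf2, and Klf2 in turn maintains S1pr1, the receptor that leads T cells out of lymph nodes towards sphingosine-1-phosphate. Ccr7 is the chemokine receptor that brings them in. Stimulation through the T cell receptor activates the kinase Akt, which expels Foxo1 from the nucleus, and these genes normally decline together as cells divide. Lef1 and its relative Tcf7 are DNA-binding partners of β-catenin, Satb1 organises chromatin, and Bach2 represses effector genes at sites that AP-1 factors also bind. Klf3 is a repressor of the family of Klf2, and Dapl1 is a small relative of death-associated protein known as a transcript of naive T cells.

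Of the 9 genes, 1 passed the test for a difference from vehicle. Dapl1 was 1.84-fold lower in cells of TCDD hosts than of vehicle hosts, and the other 8 differed from vehicle by at most 0.19 on the log2 scale with TCDD and 0.20 with Cl-BBQ, none past the test. Gene values are log2 intensities, a gene was called at an adjusted p under 0.05 over all genes (limma), and differences are given as TCDD or Cl-BBQ minus vehicle with 95% intervals. In bulk samples, fewer cells with a transcript and less of it per cell cannot be told apart.

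Sequences before the start sites are shown for Dapl1, the gene that was called, and for Klf3 and Satb1, whose differences with both compounds came next by p. Each runs from 250 bases before to 50 after the annotated start, 5′ to 3′ on the gene's strand, from RefSeq (GRCm38.p6). Of the 9 measured genes, 7 had an entry, with 14 start sites. The motifs searched on both strands were GCGTG, the core bound by AhR, GTAAACA, a Foxo motif, and TGANTCA, the motif of AP-1 and Bach factors. Capitals mark the matches. The Dapl1 window (chr2:59484403-59484702, plus strand) held 1 match to GTAAACA, starting 164 bases before the start site, and none to the other motifs. The Klf3 window (chr5:64803271-64803570, plus strand) held 1 GCGTG, 163 bases before the start. The Satb1 window shown (chr17:51832598-51832897, minus strand), 1 of 5 for that gene, held 2 GCGTG cores, written as their reverse complement CACGC, 249 and 214 bases before the start, and the other 4 Satb1 windows held no match to any of the 3 motifs.
Dapl1: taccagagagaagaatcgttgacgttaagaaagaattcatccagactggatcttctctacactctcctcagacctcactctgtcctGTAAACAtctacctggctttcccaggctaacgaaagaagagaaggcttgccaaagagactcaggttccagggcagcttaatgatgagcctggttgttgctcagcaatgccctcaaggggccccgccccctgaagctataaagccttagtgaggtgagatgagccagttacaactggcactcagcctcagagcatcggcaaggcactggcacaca
Klf3: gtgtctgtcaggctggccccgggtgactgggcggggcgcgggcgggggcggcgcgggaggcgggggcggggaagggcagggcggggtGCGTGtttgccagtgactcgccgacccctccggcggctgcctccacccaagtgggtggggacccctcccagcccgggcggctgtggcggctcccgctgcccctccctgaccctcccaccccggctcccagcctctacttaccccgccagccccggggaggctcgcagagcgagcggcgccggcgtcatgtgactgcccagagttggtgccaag
Satb1: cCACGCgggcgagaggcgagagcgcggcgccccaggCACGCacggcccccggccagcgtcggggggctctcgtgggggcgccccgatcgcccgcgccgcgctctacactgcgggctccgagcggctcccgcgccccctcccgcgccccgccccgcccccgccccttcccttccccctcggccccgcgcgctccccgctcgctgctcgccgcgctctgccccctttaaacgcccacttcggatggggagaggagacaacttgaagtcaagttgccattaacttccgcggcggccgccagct
Over all 32851 windows of 300 bases in the table, 32.4% held GCGTG, 3.65% held GTAAACA and 7.81% held TGANTCA. Foxo1 had 1 GCGTG in its window, and the windows of Lef1, Klf2 and Bach2 held no match to any of the 3 motifs. A match is a description of these letters only.

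The arrays were alike in overall level, with medians of 7.11 to 7.24 and pairwise correlations of 0.988 to 0.995 across probe sets. As a check of exposure, the mean log2 intensity of the AhR targets Cyp1b1, Cyp1a1, Ahrr, Tiparp and Nqo1 was 8.25 to 8.49 on the TCDD arrays, 6.83 to 7.68 on the Cl-BBQ arrays and 6.77 to 6.93 on the vehicle arrays. Against vehicle, all 5 were called higher with TCDD (1.24% of all genes called) and 0 of 5 with Cl-BBQ (0.196%). With Cl-BBQ all 5 differences were positive, 4 at an unadjusted p under 0.05 (7.91% of all genes). The Cl-BBQ array of replicate 3 stood apart from its group at 6.83, inside the vehicle range, where the other Cl-BBQ arrays were at 7.46 to 7.68. The single targets on that array differed. Ahrr (5.95) and Nqo1 (6.59) lay above all vehicle arrays, whose highest values were 5.88 and 6.52. Cyp1a1 (6.43) lay inside the vehicle range and Cyp1b1 (5.93) below it. The mean of 9 CD4 T cell identity genes was 12.15 to 12.31 on TCDD, 12.09 to 12.35 on Cl-BBQ and 12.16 to 12.25 on vehicle arrays, and 0 of the 9 were called in either comparison with vehicle. The mean of 9 B cell genes was 6.50 to 6.64 with TCDD, 6.56 to 6.62 with Cl-BBQ and 6.62 to 6.81 with vehicle. With TCDD, 5 of the 9 B cell genes had a positive and 4 a negative difference from vehicle, with a median of 7.98e-06. Of these, Cd22 and Bank1 were lower with TCDD (adjusted p = 0.00364 and 0.0392), and their part in the results below was not tested. No gene of the CD8, myeloid or NK marker lists was called.

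Dapl1 (probe set 10472235) had 10.99, 11.25, 10.87 and 11.14 on TCDD arrays 1 to 4, 10.98, 11.53, 11.63 and 11.60 on the Cl-BBQ arrays, and 11.96, 12.02, 11.84 and 11.95 on the vehicle arrays. Every TCDD array and every Cl-BBQ array lay below every vehicle array, and Cl-BBQ array 1 lay among the TCDD arrays while the other 3 lay between both groups. With TCDD the mean was 11.06 ± 0.17 against 11.94 ± 0.07 with vehicle (SD, n = 4 each), a log2 difference of −0.88 (interval −1.13 to −0.64; adjusted p = 0.000599). This was rank 39 by p of the 19938 genes. With Cl-BBQ the mean was 11.44 ± 0.31, and the difference from vehicle of −0.51 (interval −0.75 to −0.26) did not pass the test (adjusted p = 0.11). Without Cl-BBQ array 3, the one inside the vehicle range in the mean of the AhR targets, it was −0.57 (adjusted p = 0.0815). Without Cl-BBQ array 1 it was −0.36 (adjusted p = 0.0546).

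The Dapl1 difference between TCDD and Cl-BBQ was −0.38 (interval −0.62 to −0.13) and did not pass over all genes (adjusted p = 1). Cl-BBQ array 1 decided this: without it the difference was −0.53 and was called (adjusted p = 0.0084). Within the Cl-BBQ group, Dapl1 was lower where Cyp1b1, a cytochrome P450 and AhR target, was higher. Cyp1b1 was at 8.24 on Cl-BBQ array 1, at 7.90 and 7.89 on arrays 2 and 4, and at 5.93 on array 3, the reverse of their order in Dapl1. Tiparp, another AhR target, had the order of Cyp1b1, with 9.73, 9.66, 9.25 and 9.53 on Cl-BBQ arrays 1 to 4. The mean of the AhR targets had it too. Ahrr, Nqo1 and Cyp1a1 did not have it. Ahrr had 6.21, 6.33, 5.95 and 6.27, highest on array 2. Nqo1 had 7.31, 7.67, 6.59 and 7.03, also highest on array 2. Cyp1a1 had 6.89, 6.43, 6.43 and 6.56, with array 4 above array 2. These are 4 arrays, and the order of Cyp1b1 was noticed after the values were seen. Array 3, with Cyp1b1 below all vehicle arrays (6.25 to 6.57), still had Dapl1 at 11.63, below the lowest vehicle array at 11.84. On the TCDD arrays Cyp1b1 spanned only 9.67 to 9.92 while Dapl1 spanned 10.87 to 11.25.

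**Figure D1:**
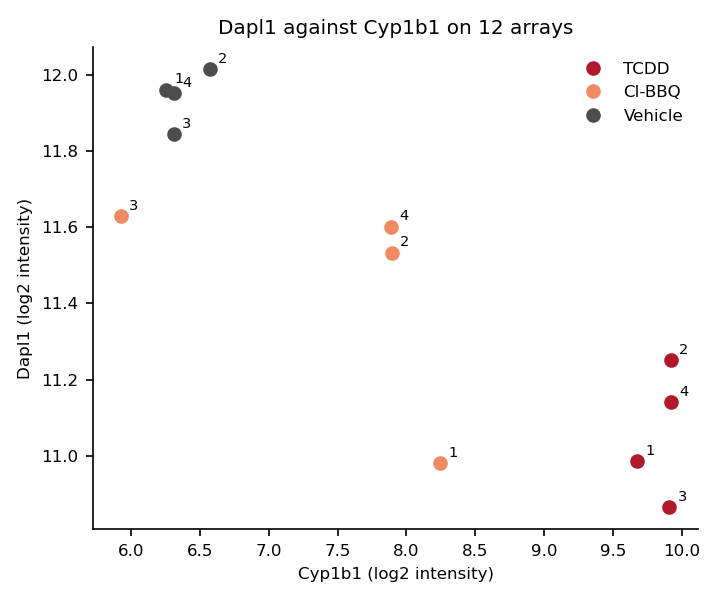
Dapl1 (vertical axis) against Cyp1b1 (horizontal axis), both as log2 intensity, on each of the 12 arrays, with points coloured by group and numbered by replicate. The TCDD arrays lie at the lower right and the vehicle arrays at the upper left; Cl-BBQ array 1 has a Dapl1 value of 10.98, as low as TCDD arrays, and Cl-BBQ array 3 has the lowest Cyp1b1 value, 5.93.

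The 4 genes whose array pattern was most like that of Dapl1 were Gstp3, Arhgap26, Sema4a and AB124611. Likeness was the root mean square difference over the 12 arrays after subtracting each gene's own mean. It was 0.10 for Gstp3, a glutathione transferase, 0.12 for Arhgap26, 0.12 for Sema4a, a semaphorin, and 0.13 for AB124611, beside a root mean square of 0.40 for Dapl1 about its own mean. The 4 were picked for following Dapl1 on these same arrays, so their differences are a description and no test is given. They were −0.92, −0.77, −0.996 and −1.12 on the log2 scale with TCDD, and −0.62, −0.50, −0.70 and −0.72 with Cl-BBQ. Gstp3 had 11.09 on Cl-BBQ array 1, where the other 3 Cl-BBQ arrays were at 11.83, 11.83 and 11.88.

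**Figure D2:**
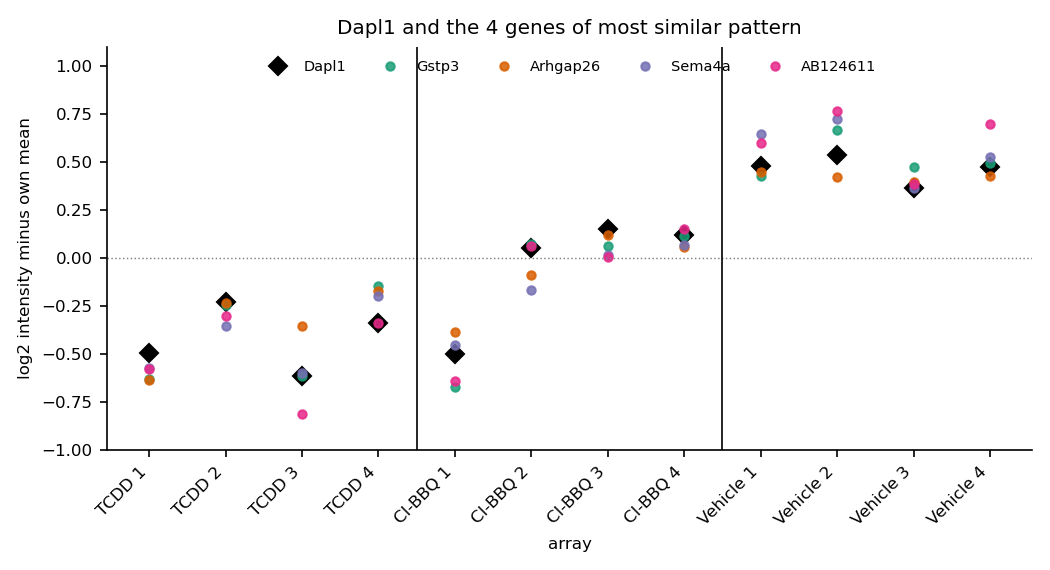
Log2 intensity minus the gene's own mean over the arrays (vertical axis) on each of the 12 arrays (horizontal axis), for Dapl1 as diamonds and for Gstp3, Arhgap26, Sema4a and AB124611 as circles; vertical lines part the groups. The 5 genes are low on the TCDD arrays and Cl-BBQ array 1 and high on the vehicle arrays, with Cl-BBQ arrays 2 to 4 between them.

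Neither homing receptor was called. Ccr7 (probe set 10390763) had 11.77, 11.90, 11.83 and 11.88 on the TCDD arrays, 11.84, 12.11, 11.87 and 11.97 on the Cl-BBQ arrays, and 11.99, 11.97, 11.82 and 11.85 on the vehicle arrays. The 3 groups overlapped, and the differences were −0.06 with TCDD (interval −0.19 to 0.06; adjusted p = 0.858) and 0.04 with Cl-BBQ (interval −0.09 to 0.16; adjusted p = 0.911). S1pr1 (probe set 10501586) had 11.85, 12.06, 11.93 and 12.04 with TCDD, 11.71, 12.05, 11.84 and 12.06 with Cl-BBQ, and 11.75, 12.06, 11.73 and 11.82 with vehicle. Its groups overlapped as well, with differences of 0.12 with TCDD (interval −0.05 to 0.30; adjusted p = 0.771) and 0.07 with Cl-BBQ (interval −0.10 to 0.25; adjusted p = 0.855).

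The factors upstream of these receptors were not called either. Foxo1 (probe set 10491962) had 10.57, 10.78, 10.57 and 10.72 on TCDD arrays, 10.45, 10.65, 10.44 and 10.72 on Cl-BBQ arrays, and 10.50, 10.53, 10.53 and 10.43 on vehicle arrays. All TCDD arrays lay above all vehicle arrays, by 0.16 in the mean (interval 0.01 to 0.32), and the difference did not pass the test (adjusted p = 0.515). With Cl-BBQ it was 0.07 (interval −0.09 to 0.22; adjusted p = 0.848). Klf2 (probe set 10572800) had 9.46, 9.63, 9.55 and 9.56 with TCDD, 9.35, 9.74, 9.44 and 9.85 with Cl-BBQ, and 9.38, 9.67, 9.40 and 9.42 with vehicle. Its groups overlapped, with differences of 0.08 for TCDD (interval −0.14 to 0.30; adjusted p = 0.919) and 0.12 for Cl-BBQ (interval −0.10 to 0.34; adjusted p = 0.808).

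Klf3 had the largest positive difference of the set with each compound. It (probe set 10522051) had 11.02, 11.14, 11.08 and 11.11 on TCDD arrays, 10.996, 11.17, 11.03 and 11.19 on Cl-BBQ arrays, and 10.86, 11.01, 10.86 and 10.87 on vehicle arrays. The TCDD arrays did not overlap with vehicle, and Cl-BBQ array 1 lay below vehicle array 2. The mean difference was 0.19 with TCDD (interval 0.06 to 0.31; adjusted p = 0.215) and 0.20 with Cl-BBQ (interval 0.07 to 0.32; adjusted p = 0.298).

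Satb1 was the least variable of the 9 genes within groups. Its pooled SD of 0.06 exceeded that of 5.45% of all genes, whereas the pooled SD of Dapl1, 0.21, exceeded that of 94.4%. Satb1 (probe set 10451763) had 12.67, 12.60, 12.71 and 12.67 with TCDD, 12.65, 12.56, 12.61 and 12.61 with Cl-BBQ, and 12.55, 12.54, 12.56 and 12.40 with vehicle. All arrays of both compounds lay above all vehicle arrays, although by small margins. The difference was 0.15 with TCDD (interval 0.07 to 0.23; adjusted p = 0.0955) and 0.09 with Cl-BBQ (interval 0.01 to 0.18; adjusted p = 0.57). Vehicle array 4 was the lowest, at 12.40.

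Lef1 and Bach2 showed no separation. Lef1 (probe set 10496091) had 11.66, 11.79, 11.65 and 11.80 with TCDD, 11.55, 11.78, 11.69 and 11.88 with Cl-BBQ, and 11.69, 11.80, 11.70 and 11.53 with vehicle. The differences were 0.04 with TCDD (interval −0.11 to 0.19; adjusted p = 0.944) and 0.05 with Cl-BBQ (interval −0.10 to 0.19; adjusted p = 0.903). Bach2 (probe set 10503695) had 8.84, 9.07, 9.17 and 9.12 on TCDD arrays, 9.21, 9.12, 9.18 and 9.28 on Cl-BBQ arrays, and 9.15, 9.10, 9.33 and 8.85 on vehicle arrays. Its vehicle arrays alone spanned 0.48, more than the difference with TCDD of −0.06 (interval −0.26 to 0.15; adjusted p = 0.944) or with Cl-BBQ of 0.09 (interval −0.11 to 0.30; adjusted p = 0.848).

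**Figure D3:**
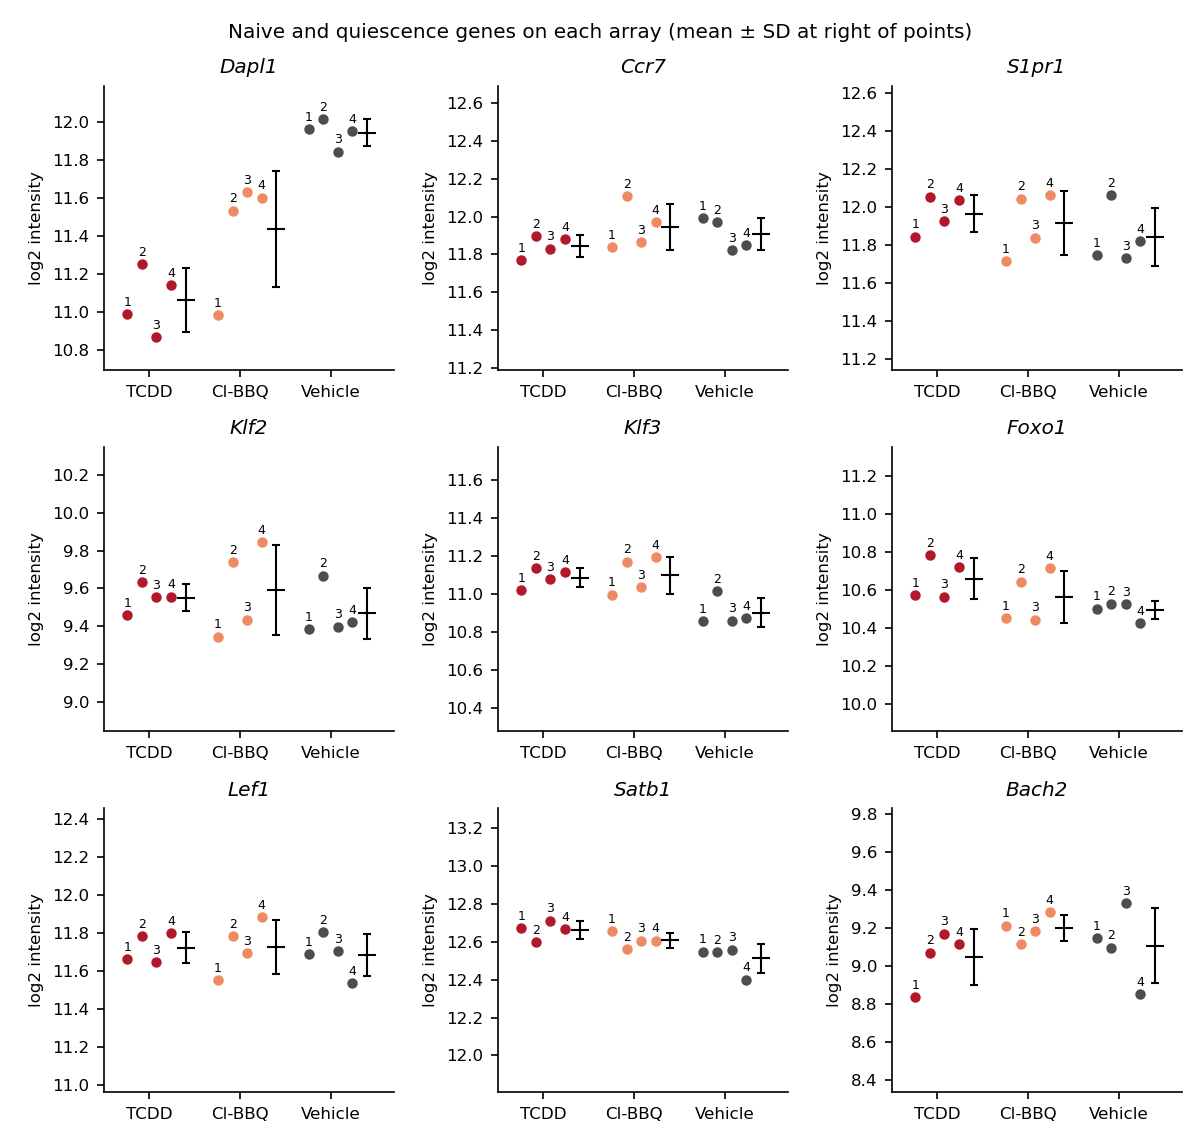
Log2 intensity (vertical axes, each spanning the same number of log2 units) of the 9 measured genes on each array, by group (horizontal axes), with replicate numbers above the points and the mean ± SD of 4 arrays at the right of each group. Dapl1 is the gene whose TCDD arrays (10.87 to 11.25) lie far below its vehicle arrays (11.84 to 12.02); in Ccr7, S1pr1, Klf2, Lef1 and Bach2 the groups overlap.

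The genes were chosen with earlier results of these data known, so their counts beside all genes are a description and not a test. As a set, 1 of 9 genes was called with TCDD, against 1.24% of all genes tested. At an unadjusted p under 0.05 there were 4 of 9, Dapl1, Satb1, Klf3 and Foxo1, against 8.69% of all genes. Arrays of TCDD and vehicle did not overlap in the same 4, against 5.8% of all genes, with Dapl1 lower and the other 3 higher. The median log2 difference of the 9 genes was 0.08, beside 0.00418 over all genes. With Cl-BBQ limma called 0 of 9 (0.196% of all genes), with 3 of 9 at an unadjusted p under 0.05 (Dapl1, Klf3 and Satb1; 7.91% of all genes) and 2 of 9 not overlapping (Dapl1 lower and Satb1 higher; 3.85% of all genes). The median was 0.07, beside 0.0107 over all genes. Both comparisons use the same vehicle arrays, so the like order of their values is not a second observation.

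When TCDD was set against Cl-BBQ, whose doses were not matched, limma called 0 of 9 (0.015% of all genes), 1 had an unadjusted p under 0.05, which was Dapl1 (2.99% of all genes), and 0 did not overlap (2.04% of all genes). For the other 8 genes the TCDD minus Cl-BBQ difference ran from −0.15 for Bach2 (interval −0.36 to 0.06) to 0.10 for Foxo1 (interval −0.06 to 0.25). Klf3 had a difference of −0.01 (interval −0.14 to 0.11) and Lef1 of −0.0042 (interval −0.15 to 0.14). With the replicate number as a block, 5 genes in all were called between the compounds in place of 3, and again 0 of these 9.

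For both compounds combined, the mean of the TCDD and Cl-BBQ groups was set against vehicle. Dapl1 was 1.62-fold lower (difference −0.69, interval −0.91 to −0.48; adjusted p = 0.00161). It was the 1 called gene of 9, against 1.23% of all genes. Klf3 was at 0.19 (interval 0.08 to 0.30; adjusted p = 0.0994) and Satb1 at 0.12 (interval 0.05 to 0.19; adjusted p = 0.122), and these 3 were the genes at an unadjusted p under 0.05 (9.93% of all genes). In 2 of 9, Dapl1 and Satb1, the 8 treated arrays did not overlap with the vehicle arrays (1.67% of all genes). Klf3 was called here without Cl-BBQ array 1 (difference 0.21, adjusted p = 0.0401).

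**Figure D4:**
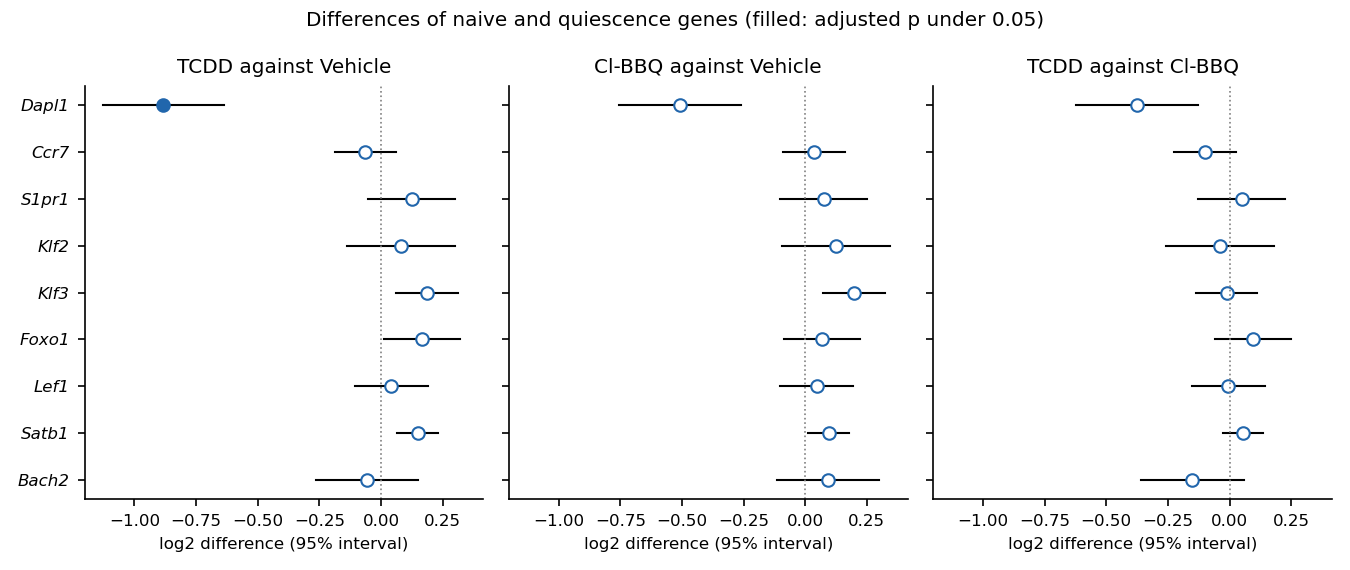
Log2 differences (horizontal axes) of the 9 genes (vertical axis) in 3 panels, each compound set against vehicle and then TCDD set against Cl-BBQ, with 95% intervals; filled points are called at an adjusted p under 0.05. The filled point is Dapl1 with TCDD at −0.88, and the other genes lie between −0.15 and 0.20 in all 3 comparisons.

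An order of arrays within groups was noticed after the values were seen, and it was not tested. On TCDD arrays 2 and 4, values were above those of arrays 1 and 3 in 7 of 9 genes (Lef1, Ccr7, Dapl1, Klf2, Klf3, S1pr1 and Foxo1), against 26.8% of all genes. On the Cl-BBQ arrays the same numbers were above in 6 of these 7, all but Dapl1, against 28.1% of all genes. On the vehicle arrays this held in 3 of 9, Klf2, Klf3 and S1pr1, against 14.3% of all genes. Array TCDD 2 was the highest of its group in 6 genes, Cl-BBQ 4 in 6 and vehicle 2 in 6, and Cl-BBQ 1 was the lowest of its group in 6. Bach2 and Satb1 did not follow this order in any group. Other measures are given beside it, and their part was not tested. The mean of the 9 CD4 identity genes was 12.25 and 12.31 on TCDD arrays 2 and 4 and 12.15 and 12.22 on arrays 1 and 3. On the Cl-BBQ arrays it was 12.30 and 12.35 on arrays 2 and 4 and 12.09 and 12.22 on arrays 1 and 3. On the vehicle arrays it did not follow the order, with 12.25 and 12.19 on arrays 2 and 4 and 12.20 and 12.16 on arrays 1 and 3. The median of all probe sets was 7.13 and 7.16 on Cl-BBQ arrays 2 and 4 against 7.24 and 7.19 on arrays 1 and 3. On the TCDD arrays it was 7.17 and 7.11 against 7.20 and 7.14, and on the vehicle arrays 7.17 and 7.13 against 7.14 and 7.22, with no such separation in either. Vehicle array 2 also had the highest mean of Cd8a and Cd8b1, 9.18, where the other vehicle arrays were at 8.36 to 8.54. This came from Cd8a, at 8.47 against 6.96 to 7.03 on the other vehicle arrays. Cd8b1 was at 9.90, inside their range of 9.73 to 10.13.

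**Figure D5:**
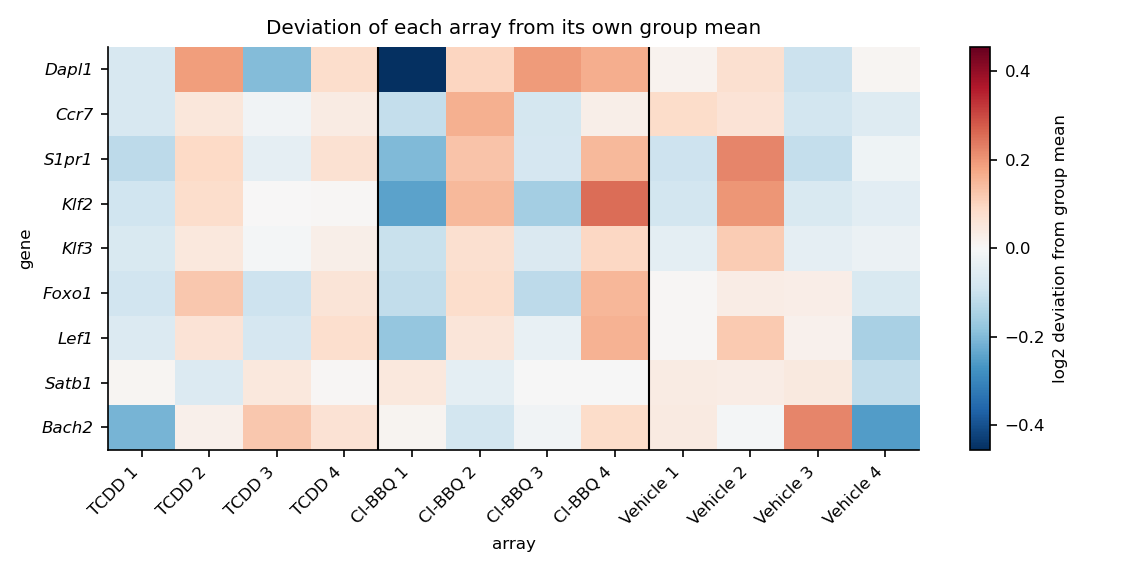
Deviation of each array from its own group mean in log2 units (colour) for the 9 genes (vertical axis) on the 12 arrays (horizontal axis), with lines between the groups. Cl-BBQ array 1 is low in 6 of 9 genes as the lowest of its group, and TCDD 2, Cl-BBQ 4 and vehicle 2 are each the highest of their group in 6 genes.

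Related genes were read from 8 lists with 124 measured genes, partly overlapping. The lists were chosen with earlier results of these data known, so their counts beside all genes are a description and not a test. Over all genes, 1.24% were called with TCDD and 0.196% with Cl-BBQ, 8.69% and 7.91% had an unadjusted p under 0.05, and in 5.8% and 3.85% the arrays did not overlap with vehicle. Among 19 other genes high in naive T cells, TCDD raised 3 and lowered 0, with 16 not called, against 1.24% of all genes called. Arrays of TCDD and vehicle did not overlap in 6 of the 19, 3 higher and 3 lower. Cd55, a complement regulator, was 2.48-fold higher (10.34 ± 0.14 against 9.03 ± 0.17; adjusted p = 3.6e-05), Pde2a, a phosphodiesterase, 1.63-fold (adjusted p = 0.0269) and Rasgrp2, an activator of Rap1, 1.45-fold (10.63 ± 0.04 against 10.10 ± 0.19; adjusted p = 0.00432). The median difference of the list was 0.000145, beside 0.00418 over all genes. With Cl-BBQ, Cd55 rose 1.69-fold (9.79 ± 0.25; adjusted p = 0.0146) and the other 18 were not called. Il7r, the interleukin-7 receptor chain that Foxo1 is known to maintain, was called for both compounds combined (1.58-fold higher, adjusted p = 0.0386), as was Igfbp4, 1.38-fold lower (adjusted p = 0.0345). With each replicate left out in turn, Pde2a kept its call with TCDD in 3 of 8 fits (adjusted p up to 0.119 without TCDD array 2, 3 or 4 or vehicle array 3 or 4). Cd55 kept its call with Cl-BBQ in 5 of 8 (adjusted p up to 0.0675 without Cl-BBQ array 2 or vehicle array 1 or 4). Il7r and Igfbp4 each kept theirs in 4 of 12 fits, with adjusted p up to 0.207 and 0.169; both lost it without TCDD array 3 or 4, Cl-BBQ array 3 or vehicle array 1 or 3, Il7r also without TCDD array 2, Cl-BBQ array 2 or vehicle array 4, and Igfbp4 also without TCDD array 1, Cl-BBQ array 4 or vehicle array 2.

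The partners and regulators of Lef1 and Tcf7 held 1 gene that rose and 1 that fell with TCDD among 19 (1.24% of all genes called). Axin2, a feedback inhibitor of β-catenin and a known target of Lef1 and Tcf7, was 1.48-fold higher. It had 9.33, 9.54, 9.34 and 9.55 on TCDD arrays, 9.08, 9.43, 9.06 and 9.33 on Cl-BBQ arrays, and 8.89, 8.94, 8.66 and 9.01 on vehicle arrays. All arrays of both compounds lay above all vehicle arrays, and the difference was called with TCDD (0.57, adjusted p = 0.00641) and not with Cl-BBQ (0.35, adjusted p = 0.273). Myb, a transcription factor, was 1.24-fold lower with TCDD (10.40 ± 0.09 against 10.70 ± 0.06; adjusted p = 0.0296), a call kept in 1 of 8 fits that left out a replicate, that without TCDD array 4 (adjusted p up to 0.127 in the others), whereas Axin2 kept its call in 8 of 8. The median of the list was −0.0050 with TCDD and 0.01 with Cl-BBQ, and 0 of 19 were called with Cl-BBQ (0.196% of all genes).

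Brakes on growth and division gave no call: 0 of 23 genes with either compound, against 1.24% of all genes called with TCDD and 0.196% with Cl-BBQ. At an unadjusted p under 0.05 there were 5 of 23 (21.7%) each time, beside 8.69% and 7.91% of all genes. Arrays did not overlap with vehicle in 2 higher and 1 lower with TCDD (5.8% of all genes), and in 2 higher and 0 lower with Cl-BBQ (3.85%). The 1 lower with TCDD was Dgkz, at 9.49 ± 0.14 (9.37 to 9.65) against 9.85 ± 0.09 with vehicle (9.73 to 9.96). Klf6, a relative of Klf2, was higher by 0.41 with TCDD (adjusted p = 0.122) and 0.33 with Cl-BBQ (adjusted p = 0.418). Txnip, a regulator of glucose uptake, was at 0.36 with Cl-BBQ (adjusted p = 0.287), and Peli1, a ubiquitin ligase, at 0.19 with TCDD (adjusted p = 0.102). The median of the list was 0.05 with TCDD and 0.06 with Cl-BBQ. The 11 PI3K, Akt and Sgk genes upstream of Foxo1 had 0 calls as well, 4 (36.4%, beside 8.69% of all genes) and 2 (18.2%, beside 7.91%) at an unadjusted p under 0.05, and medians of 0.12 and 0.07. Inpp5d, a lipid phosphatase, was at 0.20 with TCDD (adjusted p = 0.171) and Pik3r1, a regulatory subunit of PI3K, at 0.16 (adjusted p = 0.212).

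Of 14 known Foxo targets, which include Klf2, Ccr7 and S1pr1, Ctla4 rose 1.26-fold with TCDD (adjusted p = 0.00192) and 13 were not called (1.24% of all genes called). With Cl-BBQ 0 of 14 were called (0.196% of all genes) and 3 had an unadjusted p under 0.05 (7.91% of all genes). Among these 3 was Il7r with a difference of 0.68 (adjusted p = 0.163). In the circuit of lymph node entry and egress, 1 of 14 genes fell with TCDD and 0 rose (1.24% of all genes called). This was Plpp1, a lipid phosphatase, 1.5-fold lower (7.95 ± 0.06 against 8.54 ± 0.29; adjusted p = 0.0371), and its call was kept in 1 of 8 fits that left out a replicate, that without vehicle array 3 (adjusted p up to 0.145 in the others). With Cl-BBQ it had a like difference of −0.59 that did not pass (adjusted p = 0.0906). Of the 14 genes of this circuit, 5 (35.7%) had an unadjusted p under 0.05 with TCDD, beside 8.69% of all genes. Arrays of TCDD and vehicle did not overlap in 1, Plpp1, against 5.8% of all genes.

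Among partners and rivals of Bach2 at AP-1 and Maf sites, 1 of 14 rose with TCDD and 0 fell (1.24% of all genes called). It was Prdm1, which encodes Blimp-1 and is known to be repressed by Bach2. Prdm1 was 2.33-fold higher with TCDD (9.17 ± 0.24 against 7.95 ± 0.20; adjusted p = 0.00122), and at 0.70 with Cl-BBQ (8.65 ± 0.44; adjusted p = 0.159). Bach2 itself was not called in the same samples. Of the 14 genes of the list, 4 (28.6%) had an unadjusted p under 0.05 with TCDD, beside 8.69% of all genes. Arrays of TCDD and vehicle did not overlap in 4 of the 14, all higher, against 5.8% of all genes. Of 18 genes of activated and effector cells, arrays of TCDD and vehicle did not overlap in 8, 6 higher and 2 lower, against 5.8% of all genes. Called with TCDD were 3 that rose and 0 that fell, against 1.24% of all genes. The 3 were Prdm1, the granule protease gene Gzmb at 3.29-fold (adjusted p = 0.00115) and Id2, an inhibitor of E proteins, at 1.41-fold (adjusted p = 0.0332), the last kept in the fits without TCDD array 1 or vehicle array 2 and lost in 6 of 8 that left out a replicate (adjusted p up to 0.143). With Cl-BBQ Gzmb rose 2.52-fold (adjusted p = 0.0385), a call kept in 3 of 8 such fits and lost without Cl-BBQ array 2 or 3 or vehicle array 1, 3 or 4 (adjusted p up to 0.139). The medians of this list were 0.06 with TCDD and 0.03 with Cl-BBQ.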

How the data were processed

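Gene expression of sorted donor CD4+ T cells was measured on 12 arrays. The deposited values were log2 intensities made by robust multi-array average (RMA), per the submitters' processing notes; the version and probe library were not given in the sources used here, and the log2 scale was read from the values (2.49 to 14.2). Of 35556 probe sets, 21789 carried 1 symbol in the platform annotation, 1621 several and 12146 were not listed. The probe set with the highest mean stood for a gene, leaving 19938 genes, and no filter on dim genes was applied. Precision is limited by how many arrays there were.

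One linear model held all 12 arrays (limma 3.58.1 in R 4.3.3), with a mean for each group, an intensity trend in eBayes and 9 residual degrees of freedom. Contrasts were two-sided and p values were adjusted by Benjamini-Hochberg over all genes. The fit was tested on simulated data. Of the related lists, the genes named were those called, or where none was, the 2 with the smallest p. Dgkz was named beside these after values were seen, and the array orders were picked after values were seen. The genes and lists were chosen with earlier results of these data known. P values set a difference between groups against the spread of arrays within groups. Whether that spread is between single hosts is not said in the labels. Replicate numbers are not said to mark a shared batch. Deviations of same-numbered TCDD and Cl-BBQ arrays correlated at 0.606, 0.113, 0.157 and 0.365, all over 0.1, so the block is given beside that comparison. With vehicle arrays, −0.134 to 0.182 was found. Alternatives were other normalizations, a filter on dim genes (mean at or above the 25th percentile), other variance priors, 2-group fits, array weights, a replicate block, other uses of probe sets and each replicate left out. Plots came from Python 3.11.15 and matplotlib 3.10.9. Applying the alternatives to genes outside the set of 9 was decided after seeing the data.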

Additional observations from a re-analysis of the deposited data

Results flagged for a closer look

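In 4 of 27 groups of 4 arrays tested (9 genes in 3 groups), the highest or lowest array stood further from its nearest neighbour than Dixon's 95% critical value allows; chance flags about 1 in 20 such groups. Dapl1 on Cl-BBQ array 1 was at 10.98, where the nearest Cl-BBQ array was at 11.53. Satb1 on vehicle array 4 was at 12.40, with the nearest vehicle array at 12.54. Klf2 and Klf3 were both high on vehicle array 2, at 9.67 and 11.01, with the nearest vehicle arrays at 9.42 and 10.87. The mean of Cd8a and Cd8b1 was also highest on that array, through Cd8a and not Cd8b1, and its part was not tested.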

How the results depend on the processing

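Dapl1 kept its call and direction with TCDD in all 18 alternatives, at −0.95 to −0.82 (adjusted p at most 0.00473), and in all 21 with both compounds combined. Only median centring, quantile normalization, array weights and leaving out a replicate could change a difference of these 9 genes. The other alternatives left each difference as it was and could change only its p value. Of the 36 differences of the 9 genes, 25 kept their sign in every alternative. The others were near 0. Lef1 between the compounds turned to 0.00065 after median centring and 0.0052 with array weights, Klf3 between the compounds to 0.0052 with array weights, and Bach2 with both compounds together to −0.0026 after median centring. With a replicate left out in turn, Lef1 ran from −0.0078 to 0.082 with TCDD, −0.0066 to 0.10 with Cl-BBQ, −0.063 to 0.048 between the compounds and −0.0057 to 0.084 for both together. Bach2 ran from −0.14 to 0.016 with TCDD and −0.068 to 0.092 for both, and Ccr7 from −0.018 to 0.072 with Cl-BBQ and −0.042 to 0.014 for both. Between the compounds, Klf2 ran from −0.12 to 0.045, Klf3 from −0.046 to 0.020 and S1pr1 from −0.017 to 0.099.

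With the replicate block, members called were 2 with TCDD (Satb1 added, adjusted p = 0.0424), 1 with Cl-BBQ (Dapl1, adjusted p = 0.0248) and 2 for both together (Klf3 added, adjusted p = 0.0264), and genes called were 397, 111, 395 and, between the compounds, 5; same-numbered arrays of vehicle and treated groups share only a number. Quantile normalization also gave 2 members for both together (Klf3, adjusted p = 0.0275). With a replicate left out, members called ran from 0 to 1 between the compounds and from 1 to 2 for both together. Genes called with TCDD were 247, 391 with array weights and 150 to 227 with a replicate left out, 150 without TCDD replicate 3. With Cl-BBQ they were 39, 13 after median centring, 96 after quantile normalization, 18 without the trend, 11 from the 2 groups alone and 3 to 61 with a replicate left out, namely 61 without Cl-BBQ replicate 1, 3 without its replicate 2, 16 without its replicate 4, 9 without vehicle replicate 1 and 4 without vehicle replicate 4. Between the compounds they were 3, 0 after quantile normalization, without the trend and from the 2 groups alone, 9 with array weights and 0 to 7 with a replicate left out, with 0 without any 1 TCDD array or Cl-BBQ replicate 4, 1 without Cl-BBQ replicate 3 and 7 without Cl-BBQ replicate 1. For both together they were 246, and 154 to 319 with a replicate left out, 154 without vehicle replicate 4. The cause was not tested.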
